A study of Homo sapiens with 12 samples.

Results

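The 10 genes described here are targets and regulators of the integrated stress response: ATF4, DDIT3, TRIB3, CHAC1, ATF3, ASNS, PSAT1, PHGDH, SHMT2 and PCK2. They were chosen by symbol for their known roles, and all 10 were found among the 13937 genes of the deposited expression table. Each passed the filter on low values used for testing, at least 1 CPM (reads scaled to a common library size) in at least 2 libraries, as did 13894 genes in all. The cells were WI-38, a line of human embryonic lung fibroblasts, grown in MEM with fetal bovine serum and L-glutamine, and transfected by lipofection with small interfering RNAs (siRNAs). Transcripts were counted from their 3' ends in 12 libraries, which fell into 6 groups of 2. The control group carried the control siRNA siAS in both siRNA positions of its title. In the YT group, siAS was combined with siRNAs against YAP and TAZ (WWTR1), the transcriptional coactivators of the Hippo pathway. The cGAS siRNAs target the enzyme that senses DNA in the cytosol, and the STING siRNAs the protein through which it signals. Each set was combined with siAS (groups named cGAS and STING). In cGAS_YT and STING_YT the siAS of these groups was replaced by YAP and TAZ siRNAs. In all groups with cGAS or STING siRNAs, the titles add a mark to that siRNA's name that control and YT titles lack. The mark is not explained. Whether these groups also differ from control and YT in the amount or number of siRNAs is therefore not known. All 6 groups are 1 cell line that was transfected, so none is an untransfected reference, and the labels do not say that the libraries of a group came from separate cultures; p-values therefore measure the spread between these libraries, which may be technical.

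The integrated stress response begins with the phosphorylation of the translation factor eIF2 by 1 of several kinases that sense amino acid shortage, double-stranded RNA, endoplasmic reticulum stress, or heme shortage and mitochondrial stress. General translation falls while translation of the ATF4 messenger RNA increases, so the amount of ATF4 protein is set largely after transcription and is not measured by the values below. ATF4 binds composite C/EBP-ATF response elements and activates genes for amino acid synthesis and transport, for redox control and for other transcription factors, among them DDIT3 (CHOP) and ATF3. In fibroblasts the same enzymes supply the serine and glycine that go into proteins, glutathione and nucleotides.

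Sequences around the starts of these genes were searched for the element through which ATF4 is known to act, in windows from 250 bases before to 50 bases after each start. The windows are RefSeq's on GRCh38.p14; 9 of the 10 genes were matched, and SHMT2 was not. The core of the C/EBP-ATF response element, TGATGNAA, was looked for on both strands. It occurred in 3.62% of 35116 windows genome-wide, and 4.46% of 27305 genes had it in at least 1 of their windows. Among the genes described here, CHAC1, ATF3 and ASNS had 1 match each, and the other 6 matched genes had none in these windows. The endoplasmic reticulum stress element, searched in its standard form on both strands, occurred in 0.0769% of windows and in none of these. Neither motif contains the other, and an absent match says only that these letters are not in the window. The windows below show the 3 genes with a match beside 2 without one, PSAT1 and PCK2. After cGAS siRNAs against control, CHAC1 and ASNS fell and ATF3 rose. Of the 6 genes with a window but no match, TRIB3, PSAT1, PHGDH and PCK2 fell, and ATF4 and DDIT3 were not called. Whether a match went with the response was not tested. Capitals mark the matched core, which in CHAC1 reads as its reverse complement, and each line runs 5′ to 3′ on the gene's strand.
CHAC1, chr15:40953221-40953520, plus strand: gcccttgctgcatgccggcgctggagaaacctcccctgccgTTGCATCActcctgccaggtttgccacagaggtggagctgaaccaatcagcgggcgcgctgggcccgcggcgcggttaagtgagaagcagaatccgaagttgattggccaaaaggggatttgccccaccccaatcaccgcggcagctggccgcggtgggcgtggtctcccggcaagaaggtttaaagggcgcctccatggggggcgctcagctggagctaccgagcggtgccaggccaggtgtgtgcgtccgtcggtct
ASNS, chr7:97872359-97872658, minus strand: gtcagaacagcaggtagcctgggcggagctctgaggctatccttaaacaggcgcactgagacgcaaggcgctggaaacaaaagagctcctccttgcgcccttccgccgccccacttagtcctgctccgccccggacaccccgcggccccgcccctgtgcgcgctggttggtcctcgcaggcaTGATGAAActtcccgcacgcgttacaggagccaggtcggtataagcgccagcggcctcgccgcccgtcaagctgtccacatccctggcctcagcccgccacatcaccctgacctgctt
ATF3, chr1:212565157-212565456, plus strand: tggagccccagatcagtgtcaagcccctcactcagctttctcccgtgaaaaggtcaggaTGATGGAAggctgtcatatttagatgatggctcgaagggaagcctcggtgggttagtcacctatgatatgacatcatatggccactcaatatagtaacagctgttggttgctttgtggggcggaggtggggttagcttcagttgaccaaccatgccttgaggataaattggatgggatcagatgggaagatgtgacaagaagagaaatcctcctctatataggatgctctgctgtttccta
PSAT1, chr9:78296875-78297174, plus strand: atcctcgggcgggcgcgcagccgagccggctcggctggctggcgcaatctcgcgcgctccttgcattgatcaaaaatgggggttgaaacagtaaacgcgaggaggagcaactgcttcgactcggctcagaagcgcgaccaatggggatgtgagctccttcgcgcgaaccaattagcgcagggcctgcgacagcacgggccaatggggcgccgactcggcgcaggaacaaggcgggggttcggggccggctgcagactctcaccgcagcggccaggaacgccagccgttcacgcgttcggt
PCK2, chr14:24094061-24094360, plus strand: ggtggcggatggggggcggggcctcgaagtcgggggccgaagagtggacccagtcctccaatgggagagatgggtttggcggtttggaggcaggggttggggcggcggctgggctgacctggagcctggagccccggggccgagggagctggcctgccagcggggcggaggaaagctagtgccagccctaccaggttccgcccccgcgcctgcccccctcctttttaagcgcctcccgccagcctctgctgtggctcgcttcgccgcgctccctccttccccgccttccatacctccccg
The match began 209 bases before the start of CHAC1, 191 bases before the upstream start of ATF3 and 68 bases before the upstream of the ASNS starts listed. The downstream ATF3 and ASNS starts in the table had no match. A match is a description of the sequence, not evidence that it was bound in these cells.

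Libraries held between 17790774 and 20650727 reads, and the 10 genes were covered by between 195 reads (ATF3) and 13225 reads (CHAC1) in a library. Values are CPM scaled for library composition. YAP1 was at 13.1% to 21.1% and WWTR1 at 8.70% to 14.2% of control in the 3 groups that received their siRNAs. The cGAS gene (listed as MB21D1) was at 18.7% to 23.6% and the STING gene (listed as TMEM173) at 6.66% to 7.39% in theirs. MB21D1 was low, at 9.60 and 6.14 CPM in control libraries. In libraries with cGAS siRNAs it was at 1.30 to 1.94 CPM, with 25 reads at the lowest. Where not targeted, WWTR1 was at 68.9% of control in cGAS and 72.4% in STING, and YAP1 at 85.2% and 80.8%. MB21D1 was at 87.3% in YT, 64.4% in STING and 61.4% in STING_YT. TMEM173 was at 77.4% in YT, 121% in cGAS and 96.8% in cGAS_YT. All 8 fibroblast markers examined were in the table. Their summed level ran from 20343 to 34668 CPM over libraries and was mostly COL1A1, from 9251 to 21145 CPM. Of 14 markers of epithelial, endothelial and blood cells, 3 were in the table, and those of epithelial and blood cells summed to at most 4.77 and 6.56 CPM. Libraries of a pair differed most in the YT and cGAS_YT groups, where the median gap between the 2 libraries over the 10 genes was 0.21 and 0.20 on the log2 scale, against 0.06 to 0.14 in the other groups. In bulk RNA, a change in the number of cells of a kind and a change in RNA per cell cannot be told apart.

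The genes called after the YAP and TAZ siRNAs differed between backgrounds. The interaction test given below called 4 of the 10 positive and 1 negative with STING (all genes: 3.35% and 4.53%). With cGAS it called 0 positive and 1 negative (7.5% and 5.93%). Against control, 2 genes rose (DDIT3 and ATF3) and 4 fell (ASNS, PSAT1, SHMT2 and PCK2), with a median difference of -0.05 on the log2(CPM + 1) scale beside 0.00 over all genes tested. Of all genes tested, 41.6% were called, 20.6% higher and 20.9% lower, beside 2 and 4 of these 10. In cGAS-depleted cells 2 rose (the same DDIT3 and ATF3) and 5 fell (CHAC1, ASNS, PSAT1, SHMT2 and PCK2), with a median of -0.28 beside 0.03 over all genes, where 27.7% of all genes were called, 15% higher and 12.7% lower. In STING-depleted cells 6 rose (DDIT3, TRIB3, ATF3, PSAT1, PHGDH and PCK2) and 2 fell (CHAC1 and SHMT2), with a median of 0.46 beside 0.03, where 38.9% were called, 19.1% higher and 19.8% lower. Tests are limma's on log2(CPM + 1), with Benjamini-Hochberg adjustment over all genes and a threshold of 0.05. Differences are given with their standard errors from 1 fit of all 12 libraries, with 2 libraries per group. A gene's standard error is therefore the same in every comparison of 2 groups and does not show the spread of the pairs compared.

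**Figure D1:**
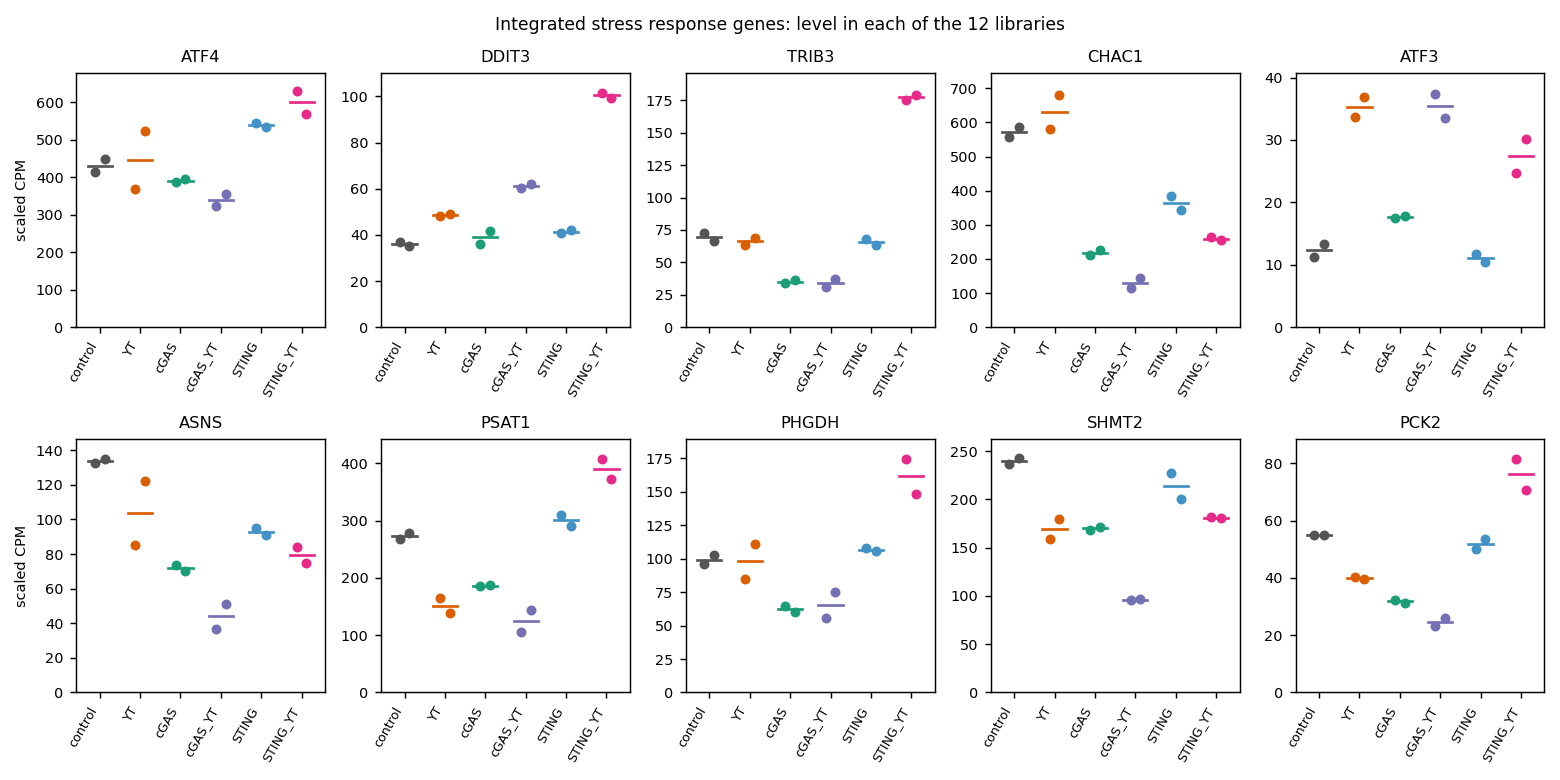
Scaled CPM (vertical axes, starting at 0) of the 10 genes in the 12 libraries, with the 6 siRNA groups on the horizontal axes; points are libraries and bars are means of 2. STING_YT libraries were the highest for ATF4, DDIT3, TRIB3, PSAT1, PHGDH and PCK2, and cGAS_YT libraries had the lowest means for ATF4, TRIB3, CHAC1, ASNS, PSAT1, SHMT2 and PCK2.

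The cGAS siRNAs lowered most of the list in both settings in which they were given. Against control 7 genes fell and 1 rose (ATF3), where 25.4% of all genes were called, 14.3% lower and 11.1% higher, and the median was -0.61 beside -0.02 over all genes. Against YT, a comparison that shares no library with the former, 7 fell and 1 rose (DDIT3), where 40.7% were called, 20.2% lower and 20.5% higher, with a median of -0.63 beside 0.00. TRIB3, CHAC1, ASNS, PHGDH, SHMT2 and PCK2 fell in both. The share of all genes that fell in both was not computed, so this overlap cannot be set against that of other genes. STING siRNAs against control lowered 2 genes, CHAC1 and ASNS, and raised none, where 15% of genes were called, 8.86% lower and 6.14% higher, and the median was -0.09 beside 0.00. Against YT, STING siRNAs went with 6 higher genes (ATF4, DDIT3, TRIB3, PSAT1, PHGDH and PCK2) and 1 lower (CHAC1), where 34.1% were called, 16% higher and 18% lower, with a median of 0.59 beside 0.01. The 8 fibroblast markers moved in both directions in these comparisons: after cGAS siRNAs against control 3 fell (COL1A1, VIM and PDGFRB) and 1 rose (LUM), with a median of -0.03, and in cGAS_YT against YT 1 fell (COL1A1) and 4 rose (COL3A1, THY1, LUM and FAP), with a median of 0.26. Their summed level, which is mostly COL1A1, was 21100 to 22026 CPM in cGAS and 31193.5 to 31643 CPM in control libraries. The part of these marker differences in the falls was not tested. The comparisons with control share the control libraries, and those with YT share the YT libraries.

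**Figure D2:**
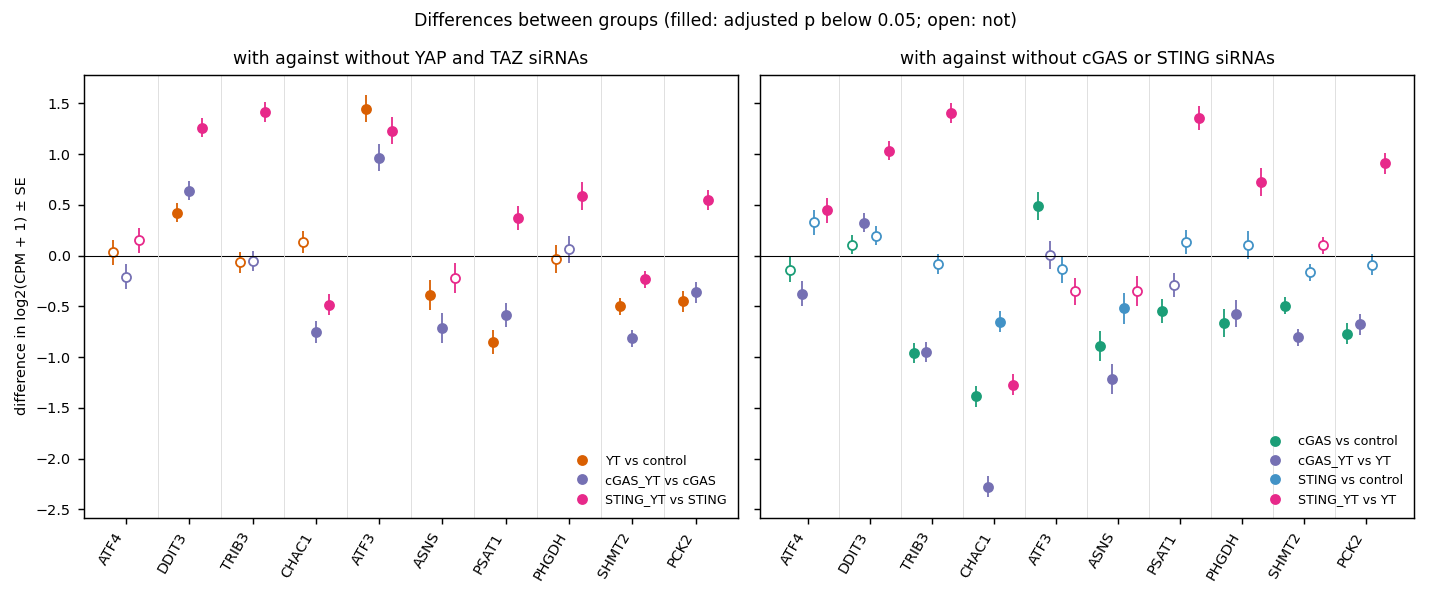
Differences in log2(CPM + 1) (vertical axis) of the 10 genes (horizontal axis) with against without YAP and TAZ siRNAs (left) and with against without cGAS or STING siRNAs (right); bars are standard errors and filled points passed the threshold. At the left, TRIB3 stood at 1.42 in STING-depleted cells and near 0 in the others, and at the right CHAC1 lay below 0 in all 4 comparisons.

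ATF4 (chromosome 22, 39519695 to 39522685, plus strand, GRCh38) encodes the transcription factor at the centre of the response. Its transcript stood at 413 and 449 CPM in the control libraries, 368 and 525 in YT, 387 and 395 in cGAS, 323 and 355 in cGAS_YT, 544 and 535 in STING, and 630 and 570 in STING_YT. The STING and STING_YT libraries were the highest and the cGAS_YT libraries the lowest, while the YT pair spanned the control values. From STING_YT to cGAS_YT the group means differed 1.77-fold, the smallest range among the 10 genes. ATF4 was higher in STING_YT than in YT (0.45 ± 0.12, adjusted p = 0.0091) and lower in cGAS_YT than in YT (-0.38 ± 0.12, adjusted p = 0.0207), but both rest on the YT pair: without YT replicate 3 the former was 0.19 (adjusted p = 0.0913), and without YT replicate 4 the latter was -0.12 (adjusted p = 0.306). The former was also lost without STING_YT replicate 15 and the latter without cGAS_YT replicate 9. Each was lost in 2 of 9 other settings too, with adjusted p up to 0.075 for the former and 0.111 for the latter. Against control, ATF4 was not called in YT cells (0.03 ± 0.12, 95% interval -0.23 to 0.29); it was called in opposite directions without one or the other YT library, at 0.29 without replicate 3 (adjusted p = 0.0113) and -0.22 without replicate 4 (adjusted p = 0.0489). In STING cells it stood 0.33 ± 0.12 above control without passing the threshold (adjusted p = 0.0846).

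DDIT3 (chromosome 12, 57516588 to 57521737, minus strand) encodes CHOP, a partner of C/EBP factors that promotes cell death under long-lasting stress. Control libraries had 36.8 and 35.3 CPM, cGAS libraries 36.2 and 41.7, and STING libraries 40.8 and 42.0. In YT they were 48.2 and 48.9 CPM, in cGAS_YT 60.1 and 61.9, and in STING_YT 101.5 and 99.3. All 6 libraries with YAP and TAZ siRNAs were above all 6 without them. The rise was 0.42 ± 0.09 against control (adjusted p = 0.00194), 0.64 ± 0.09 in cGAS-depleted cells (adjusted p = 0.000101) and 1.26 ± 0.09 in STING-depleted cells (adjusted p = 3.2e-08), the last from 41.4 ± 0.850 to 100.4 ± 1.52 CPM (SD, n = 2). DDIT3 was also higher in cGAS_YT than in YT (0.32 ± 0.09, adjusted p = 0.0117). This call was lost without cGAS_YT replicate 10 and in 1 of 9 other settings (adjusted p = 0.0794). The 3' end of DDIT3 shares 355 exon bases with MARS, which encodes a methionyl-tRNA synthetase on the opposite strand, and the counting's strand setting is not given in the sources used here. MARS was not called in STING_YT against STING (-0.22 ± 0.08) and fell in YT against control (-0.37 ± 0.08) and in cGAS_YT against cGAS (-0.72 ± 0.08). MBD6, also on the opposite strand, shares 58 exon bases with DDIT3, and it rose in YT against control (0.83 ± 0.10) and in STING_YT against STING (0.94 ± 0.10). AC022506.1, on the same strand as DDIT3, shares 105 exon bases with it and was not among the genes measured. The part of reads from any of these genes in the DDIT3 values was not tested.

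ATF3 (chromosome 1, 212565334 to 212620777, plus strand) encodes a stress-induced factor of the ATF and CREB family that also responds to signals other than ATF4. Its libraries were at 11.3 and 13.3 CPM in control, 17.5 and 17.8 in cGAS, and 11.7 and 10.46 in STING. With YAP and TAZ siRNAs they were at 33.7 and 36.8 CPM in YT, 37.4 and 33.5 in cGAS_YT, and 24.8 and 30.2 in STING_YT. As for DDIT3, every library with these siRNAs was above every library without them. ATF3 rose by 1.45 ± 0.14 against control (adjusted p = 3.52e-07), by 0.97 ± 0.14 in cGAS-depleted cells (adjusted p = 6.63e-05) and by 1.23 ± 0.14 in STING-depleted cells (adjusted p = 2.46e-06). No difference between these rises was called: the interactions were -0.48 ± 0.19 with cGAS (95% interval -0.89 to -0.07, adjusted p = 0.115) and -0.22 ± 0.19 with STING (95% interval -0.63 to 0.19, adjusted p = 0.567). The rise after cGAS siRNAs alone, 0.49 ± 0.14 (adjusted p = 0.0143), lost its call without control replicate 1 (adjusted p = 0.115), without cGAS replicate 7 (0.0685) and without cGAS replicate 8 (0.0801).

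TRIB3 (chromosome 20, 362835 to 397559, plus strand) encodes a pseudokinase that ATF4 and CHOP induce and that restrains ATF4 in turn. It had the widest range of the 10 genes, 5.23-fold between group means. The 2 STING_YT libraries, at 175.3 and 179.1 CPM, were far above the others. Control libraries had 72.5 and 66.8 CPM, YT libraries 63.7 and 69.0, and STING libraries 67.7 and 63.7, so that these 3 groups overlapped. The cGAS libraries (34.3 and 36.1 CPM) and the cGAS_YT libraries (30.9 and 36.9 CPM) overlapped each other below them. TRIB3 rose by 1.42 ± 0.10 in STING_YT against STING (adjusted p = 1.32e-08) and was not called in YT against control (-0.07 ± 0.10, 95% interval -0.28 to 0.14) or in cGAS_YT against cGAS (-0.06 ± 0.10, 95% interval -0.27 to 0.15). The cGAS siRNAs lowered it by nearly the same amount in both settings, -0.96 ± 0.10 against control (adjusted p = 2.92e-06) and -0.95 ± 0.10 against YT (adjusted p = 1.12e-06).

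CHAC1 (chromosome 15, 40952962 to 40956519, plus strand) encodes an enzyme that degrades glutathione and is among the classic targets of ATF4 and ATF3. It was the gene of the list lowered in most comparisons. Control libraries stood at 557 and 587 CPM and YT libraries at 579 and 681, the highest levels. STING libraries had 386 and 343 CPM, STING_YT libraries 263 and 256, cGAS libraries 211 and 225, and cGAS_YT libraries 115 and 144. Apart from control and YT, which overlapped, no 2 neighbouring groups in this order overlapped. CHAC1 fell after cGAS siRNAs by 1.39 ± 0.11 on the log2 scale (adjusted p = 1.17e-07), to 38.1% of control, and after STING siRNAs by 0.65 ± 0.11 (adjusted p = 0.00052), to 63.7%. It was not called in YT against control (0.14 ± 0.11, 95% interval -0.09 to 0.36), yet in cGAS_YT it fell by 0.76 ± 0.11 relative to cGAS (adjusted p = 6.02e-05) and in STING_YT by 0.48 ± 0.11 relative to STING (adjusted p = 0.00168). In STING_YT cells it moved against DDIT3, TRIB3 and ATF3, which rose in the same libraries.

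ASNS (chromosome 7, 97852118 to 97872542, minus strand) makes asparagine from aspartate and glutamine and is a standard marker of amino acid shortage. It was highest in the control libraries (132.9 and 134.9 CPM) and lowest in the cGAS_YT libraries (36.7 and 51.1 CPM). In between came YT (85.1 and 122.0 CPM), STING (95.1 and 90.9), STING_YT (84.3 and 75.1) and cGAS (73.4 and 70.1), with only YT and STING overlapping as neighbours. The cGAS siRNAs lowered ASNS by 0.89 ± 0.15 against control (adjusted p = 0.000321), and it fell by 0.71 ± 0.15 in cGAS_YT against cGAS (adjusted p = 0.00184) and by 1.21 ± 0.15 in cGAS_YT against YT (adjusted p = 6.83e-06). Its fall in YT against control (-0.39 ± 0.15, adjusted p = 0.0452) was lost without YT replicate 3 (-0.13) and without either control library. The call was also lost in 5 of 9 other settings, with adjusted p up to 0.127. Among these were both count tests on reads (adjusted p = 0.0581 by edgeR and 0.0526 by DESeq2). The fall in STING against control (-0.52 ± 0.15, adjusted p = 0.0262) was lost when any of the 4 libraries compared was left out (adjusted p from 0.102 to 0.152). ASNS was not called in STING_YT against STING (-0.22 ± 0.15, 95% interval -0.54 to 0.09). On the same strand, AC079781.5 shares 1985 exon bases with ASNS, has an exon near its 3' end and was not among the genes measured. The part of its reads in the ASNS values was not tested.

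The serine pathway enzymes did not move as a block. PHGDH (chromosome 1, 119648411 to 119744226, plus strand) carries out the committed step from 3-phosphoglycerate, PSAT1 (chromosome 9, 78297143 to 78330093, plus strand) the transamination that follows, and SHMT2 (chromosome 12, 57229327 to 57234935, plus strand) the mitochondrial conversion of serine to glycine. PSAT1 libraries had 268 and 279 CPM in control, 165 and 138 in YT, 186 and 187 in cGAS, 106 and 145 in cGAS_YT, 310 and 291 in STING, and 407 and 373 in STING_YT. The STING_YT libraries were the highest and those of YT and cGAS_YT, which overlapped, the lowest. PSAT1 fell by 0.85 ± 0.12 in YT against control (adjusted p = 2.56e-05) and by 0.59 ± 0.12 in cGAS_YT against cGAS (adjusted p = 0.0014). In STING_YT it rose by 0.37 ± 0.12 relative to STING (adjusted p = 0.019), a call lost without STING replicate 13, STING replicate 14 or STING_YT replicate 15. That call was also lost in 1 of 9 other settings (adjusted p = 0.0787). Relative to YT, PSAT1 was 1.36 ± 0.12 higher in STING_YT (adjusted p = 2.23e-07), and after cGAS siRNAs alone it fell by 0.55 ± 0.12 (adjusted p = 0.00248).

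PHGDH stood at 96.2 and 102.6 CPM in control libraries and at 84.7 and 111.2 in YT libraries, which enclosed them. In the cGAS libraries it was at 64.7 and 59.8 CPM and in cGAS_YT at 55.9 and 75.4, in STING at 108.2 and 105.4, and in STING_YT at 174.8 and 148.6. PHGDH was not called after YAP and TAZ siRNAs against control (-0.03 ± 0.14, 95% interval -0.32 to 0.26) or in cGAS-depleted cells (0.06 ± 0.14), and rose in STING-depleted cells (0.59 ± 0.14, adjusted p = 0.00256), with no overlap between the pairs. After cGAS siRNAs alone it fell by 0.67 ± 0.14 (adjusted p = 0.00171). It was lower in cGAS_YT than in YT (-0.57 ± 0.14, adjusted p = 0.00301), a call lost without cGAS_YT replicate 9 (adjusted p = 0.0709).

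SHMT2 followed another order, with control highest at 236 and 243 CPM and cGAS_YT lowest at 96.1 and 96.4. STING libraries had 227 and 201 CPM, STING_YT 182 and 180, cGAS 169 and 171, and YT 159 and 180. SHMT2 fell with YAP and TAZ siRNAs in all 3 backgrounds: by 0.50 ± 0.08 against control (adjusted p = 0.000171), by 0.81 ± 0.08 in cGAS-depleted cells (adjusted p = 3.06e-06) and by 0.24 ± 0.08 in STING-depleted cells (adjusted p = 0.0364). The last call was lost without STING replicate 13 (-0.15), STING_YT replicate 15 (-0.24) or STING_YT replicate 16 (-0.23), and in 1 of 9 other settings (adjusted p = 0.101). SHMT2 also fell after cGAS siRNAs, by 0.49 ± 0.08 against control (adjusted p = 0.000397) and by 0.81 ± 0.08 against YT (adjusted p = 1.2e-06). On the opposite strand, AC137834.2 shares 427 exon bases with SHMT2, and NDUFA4L2 shares 33 and has an exon near its 3' end. Neither was among the genes measured, and their part in the SHMT2 values was not tested.

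PCK2 (chromosome 14, 24094053 to 24110598, plus strand) encodes the mitochondrial phosphoenolpyruvate carboxykinase, which feeds serine and glycerol synthesis from amino acid carbon. In the order of the means, no 2 neighbouring groups of libraries overlapped. STING_YT libraries were at 81.6 and 70.9 CPM, control at 55.1 and 55.1, STING at 49.9 and 53.5, YT at 40.4 and 39.6, cGAS at 32.5 and 31.4, and cGAS_YT at 23.3 and 26.0. PCK2 fell by 0.45 ± 0.10 in YT against control (adjusted p = 0.00197) and by 0.36 ± 0.10 in cGAS_YT against cGAS (adjusted p = 0.0142), the latter call being lost without cGAS replicate 7 (adjusted p = 0.0926), cGAS replicate 8 (0.0584) or cGAS_YT replicate 9 (0.11). In STING_YT against STING it rose by 0.55 ± 0.10 (adjusted p = 0.000451). The cGAS siRNAs alone lowered it by 0.77 ± 0.10, to 57.9% of control (adjusted p = 3.63e-05).

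Whether the YAP and TAZ siRNAs acted differently in the depleted backgrounds was tested as an interaction, the difference between the effect in depleted cells and that in control cells. With STING it was positive for 4 genes and negative for 1, where 7.88% of all genes were called, 3.35% positive and 4.53% negative, and the median was 0.44 beside 0.00 over all genes. TRIB3 had 1.49 ± 0.14 (adjusted p = 6.15e-06), PSAT1 1.22 ± 0.17 (adjusted p = 0.000204), PCK2 1.001 ± 0.14 (adjusted p = 0.000333) and DDIT3 0.84 ± 0.13 (adjusted p = 0.000759). PSAT1 and PCK2 changed direction between the backgrounds, falling against control and rising in STING-depleted cells. CHAC1 was negative at -0.62 ± 0.15 (adjusted p = 0.0168). Its call was lost without control replicate 1, STING replicate 13, STING_YT replicate 15 or STING_YT replicate 16, and in 1 of 9 other settings (adjusted p = 0.1). PHGDH, at 0.62 ± 0.19, did not pass (adjusted p = 0.06). With cGAS only CHAC1 passed among the 10 genes (-0.89 ± 0.15, adjusted p = 0.000676), where 13.4% of genes were called, 7.5% positive and 5.93% negative. Without YT replicate 3 this count was 4 genes, and without cGAS_YT replicate 9 it was 2; without YT replicate 4 the STING count was 8 genes.

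Upstream of these genes, the 4 eIF2 kinases did not change together. EIF2AK2 encodes PKR, the kinase that binds double-stranded RNA and is itself an interferon-stimulated gene; it was at 176.5 and 159.1 CPM in control, 467 and 442 in cGAS, and 469 and 325 in cGAS_YT libraries. In the YT, STING and STING_YT libraries it lay between 158.8 and 189.8 CPM. It rose by 1.43 ± 0.13 after cGAS siRNAs (adjusted p = 8.68e-07) and by 1.13 ± 0.13 in cGAS_YT against YT (adjusted p = 3.89e-06), the groups in which most of the 10 genes fell. EIF2AK1, the heme-regulated kinase that also relays mitochondrial stress, rose after cGAS siRNAs (0.48 ± 0.08, adjusted p = 0.00024) and fell in YT against control (-0.31 ± 0.08, adjusted p = 0.00439). EIF2AK4, which encodes the amino acid sensor GCN2, fell in YT against control (-0.45 ± 0.10, adjusted p = 0.00139). EIF2AK3, which encodes the endoplasmic reticulum sensor PERK, was at 38.8 and 22.9 CPM in the YT pair and 23.3 and 21.5 in control and was not called there (0.40 ± 0.18, adjusted p = 0.0837). None of the 4 kinases was called in STING_YT against STING. PPP1R15A (GADD34), the stress-induced subunit that directs dephosphorylation of eIF2, rose with YAP and TAZ siRNAs in each background, by 0.57 ± 0.08, 0.47 ± 0.08 and 0.33 ± 0.08 in control, cGAS-depleted and STING-depleted cells.

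Of the 21 genes in the list of eIF2 kinases, eIF2, eIF2B and phosphatase subunits, 2 rose and 7 fell in YT against control (all genes: 20.6% higher, 20.9% lower), 1 and 7 in cGAS_YT against cGAS (15% and 12.7%), and 1 and 7 in STING_YT against STING (19.1% and 19.8%). EIF2S2, the beta subunit of eIF2, and PPP1CB, a catalytic phosphatase subunit, fell in all 3 (EIF2S2 by 0.73 ± 0.08, 0.81 ± 0.08 and 0.65 ± 0.08; PPP1CB by 1.14 ± 0.10, 1.09 ± 0.10 and 1.65 ± 0.10). After cGAS siRNAs alone 3 of the 21 rose and 3 fell, and after STING siRNAs alone 0 rose and 2 fell, where the shares over all genes were 11.1% and 14.3%, and 6.14% and 8.86%.

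**Figure D3:**
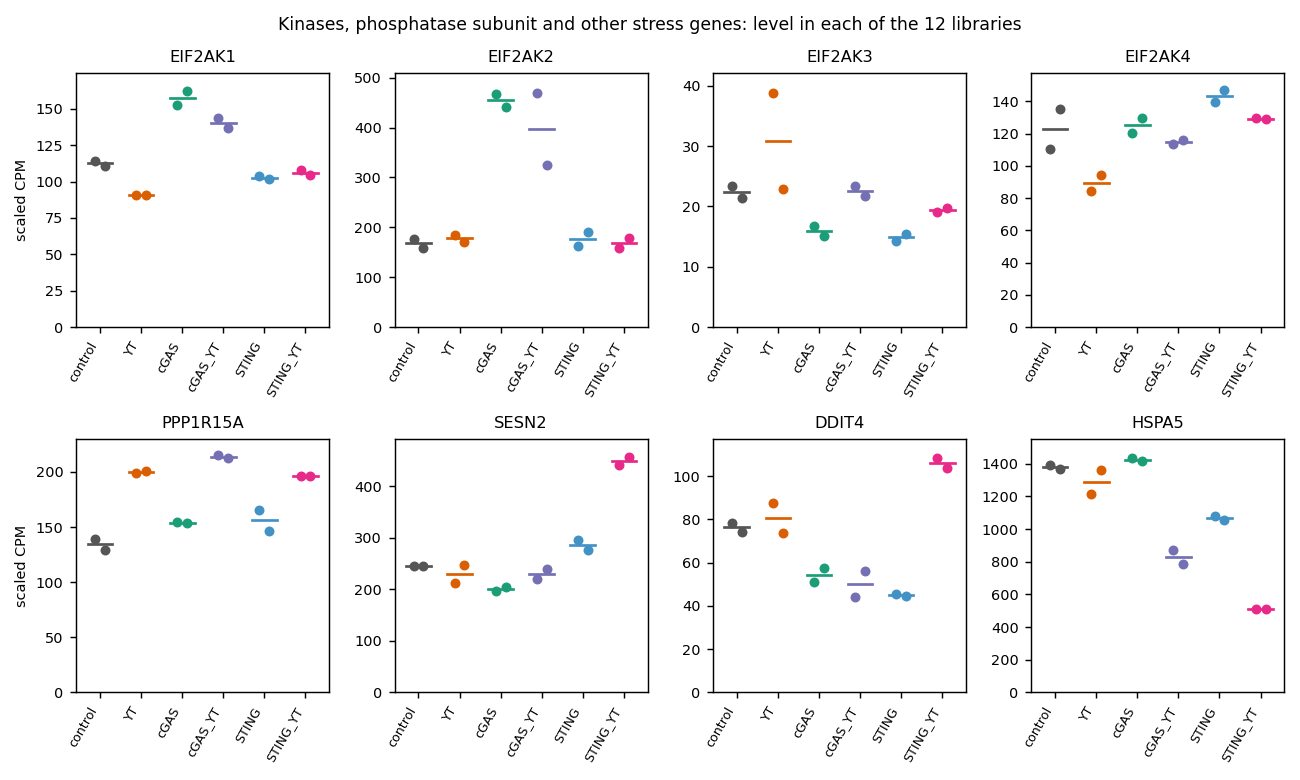
Scaled CPM (vertical axes, starting at 0) of the 4 eIF2 kinase genes, PPP1R15A, SESN2, DDIT4 and HSPA5 in the 12 libraries by siRNA group; points are libraries and bars are means of 2. EIF2AK2 was high in the 4 libraries with cGAS siRNAs, and in STING_YT libraries SESN2 and DDIT4 were at their highest and HSPA5 at its lowest.

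Other known targets and partners of ATF4 and CHOP, a list of 26 of which 23 were in the table, also included many that rose in STING_YT cells. In STING_YT against STING 12 of the 23 rose and 2 fell, with a median of 0.37 beside 0.03 over all genes. Of all genes tested, 19.1% were called higher and 19.8% lower there. SESN2, which restrains mTORC1, rose by 0.65 ± 0.09 (adjusted p = 1.61e-05), DDIT4, another mTORC1 inhibitor, by 1.22 ± 0.12 (adjusted p = 4.23e-07) and SLC7A11, the cystine transporter subunit, by 0.56 ± 0.10 (adjusted p = 0.000383). Each had a positive interaction with STING (0.75 ± 0.12, 1.14 ± 0.16 and 0.69 ± 0.14), as 7 of the 23 did, while 4 were negative. Over all genes tested, 3.35% were called positive and 4.53% negative. In YT against control 9 rose and 7 fell (all genes: 20.6% higher, 20.9% lower), with a median of 0.08. GDF15, a stress cytokine that p53 also induces, went from 185 to 1199 CPM (2.69 ± 0.10). CEBPB, a partner of ATF4 and CHOP, rose by 1.40 ± 0.11. GDF15 and CEBPB had negative interactions with STING (-1.39 ± 0.14 and -0.58 ± 0.16), opposite in sign to SESN2 and DDIT4. Their rises were smaller still in cGAS-depleted cells. GDF15 stood 6.49-fold over control in YT, 1.22-fold over cGAS in cGAS_YT and 2.48-fold over STING in STING_YT. For CEBPB these were 2.68-fold, 1.22-fold and 1.76-fold. In cGAS_YT against cGAS 6 of the 23 rose and 4 fell (all genes: 15% higher, 12.7% lower). Of the 23, 1 had a positive and 8 a negative interaction with cGAS (all genes: 7.5% and 5.93%). After cGAS siRNAs alone 2 rose and 9 fell (11.1% and 14.3%), with a median of -0.27. After STING siRNAs alone 1 rose and 3 fell (6.14% and 8.86%), among them DDIT4 (-0.74 ± 0.12, adjusted p = 0.000338).

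Among the other enzymes of serine, glycine, one-carbon and proline metabolism, 18 of 22 in the table, YAP and TAZ siRNAs lowered 9 and raised 1 against control (median -0.37). Of all genes tested, 20.9% were called lower and 20.6% higher there. PSPH, which completes serine synthesis after PSAT1, fell by 0.86 ± 0.12 (adjusted p = 3.52e-05) and MTHFD2, the mitochondrial one-carbon enzyme next to SHMT2, by 0.55 ± 0.09 (adjusted p = 9.14e-05). Of the 18 enzymes, 3 had a positive and 2 a negative interaction with STING (all genes: 3.35% and 4.53%). PSPH (0.78 ± 0.17) and MTHFD2 (0.62 ± 0.12) were among the positive ones. In STING_YT against STING these 2 stood at -0.08 ± 0.12 and 0.07 ± 0.09 without a call. PYCR1, a proline enzyme, fell by 0.38 ± 0.12 against control and ALDH18A1, which starts proline synthesis, fell by 0.43 ± 0.11, whereas ALDH18A1 rose after cGAS siRNAs (0.50 ± 0.11). In the STING-depleted background 1 of the 18 rose and 5 fell (all genes: 19.1% higher, 19.8% lower), and in the cGAS-depleted background 1 and 4 (15% and 12.7%). After cGAS siRNAs alone 2 rose and 5 fell (11.1% and 14.3%), and after STING siRNAs alone 0 and 1 (6.14% and 8.86%).

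Genes of the other arms of the unfolded protein response moved in both directions in STING_YT against STING and mostly fell in STING_YT against YT. Of 16 genes, 3 rose and 5 fell in STING_YT against STING (median -0.16), where 19.1% of all genes were called higher and 19.8% lower. In the interaction with STING 5 were negative and 0 positive (all genes: 4.53% and 3.35%), and in that with cGAS 6 and 0 (5.93% and 7.5%). Against YT, 12 fell and 1 rose in STING_YT (median -0.79, all genes: 18% lower, 16% higher). In cGAS_YT against YT 8 fell and 0 rose (median -0.21, all genes: 20.2% lower, 20.5% higher). HSPA5, which encodes the chaperone BiP, was at 514 and 509 CPM in STING_YT against 1081 and 1053 in STING and 1392 and 1368 in control libraries, a fall of 1.06 ± 0.08 relative to STING (adjusted p = 6.13e-08). XBP1, the factor activated by IRE1 splicing, rose by 0.39 ± 0.08 in the same comparison. In YT against control 7 of the 16 rose and 1 fell (all genes: 20.6% higher, 20.9% lower). MANF (0.80 ± 0.12), SDF2L1 (0.76 ± 0.13) and HYOU1 (0.71 ± 0.08) were among those that rose and are named for their small p there. The YT libraries were at 470 and 335 CPM for MANF, 114 and 158 for SDF2L1, and 294 and 327 for HYOU1. HSPA5 was not called (-0.10 ± 0.08). In cGAS_YT against cGAS 0 rose and 2 fell (all genes: 15% higher, 12.7% lower), among them HSPA5 (-0.78 ± 0.08). After cGAS siRNAs alone 1 rose and 0 fell (11.1% and 14.3%), and after STING siRNAs alone 1 rose and 8 fell (6.14% and 8.86%). Of 9 genes of the mitochondrial stress relay and mitochondrial chaperones, 0 rose and 5 fell in YT against control (all genes: 20.6% higher, 20.9% lower). In cGAS_YT against cGAS 1 rose and 5 fell (15% and 12.7%), and in STING_YT against STING 0 rose and 3 fell (19.1% and 19.8%). CLPP, a mitochondrial protease subunit, fell in all 3 (-0.80, -1.09 and -1.14).

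**Figure D4:**
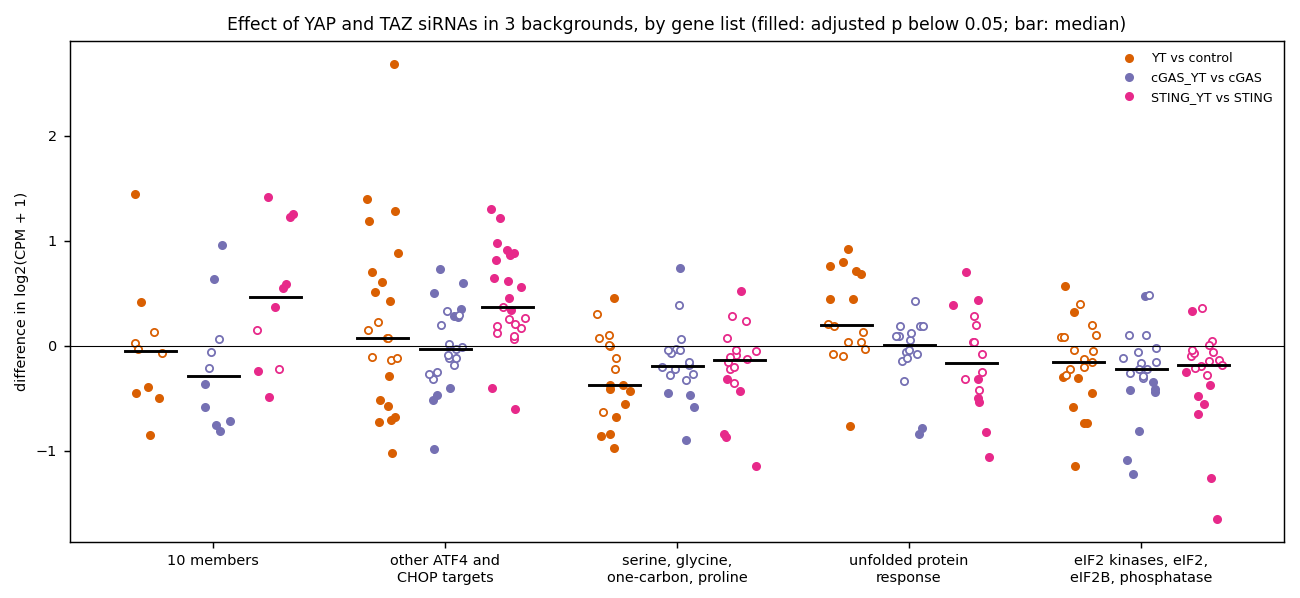
Differences in log2(CPM + 1) with against without YAP and TAZ siRNAs (vertical axis) in control, cGAS-depleted and STING-depleted cells, for the 10 genes and 4 lists of related genes (horizontal axis); filled points passed the threshold and black bars are medians. In STING-depleted cells the medians were 0.46 for the 10 genes and 0.37 for other ATF4 and CHOP targets, against -0.14, -0.16 and -0.18 for the other 3 lists.

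The 10 genes formed no single pattern over the 12 libraries. As a measure of likeness, each gene's log2(CPM + 1) values were centred on their mean and the root mean square distance between 2 genes was taken over the 12 libraries. The closest of the 45 pairs were PHGDH with PCK2 (0.21), PSAT1 with PCK2 (0.23) and ASNS with SHMT2 (0.23), and the farthest were CHAC1 with ATF3 (1.18) and PSAT1 with ATF3 (1.09). PHGDH, PSAT1 and PCK2 were all highest in STING_YT, while ASNS and SHMT2 were highest in control and lowest in cGAS_YT. DDIT3 and TRIB3, both highest in STING_YT, were 0.62 apart, with cGAS_YT second for DDIT3 and last for TRIB3. Among the 10242 other genes that averaged 5 CPM or more, the nearest to PCK2 was ADM2 (0.16), a hormone gene on the list of other ATF4 targets, and the nearest to SHMT2 were PACSIN2 (0.11) and MARS (0.11). CC2D2A was nearest to DDIT3 (0.12), FAM129A to TRIB3 (0.24), TIMP3 to CHAC1 (0.14), TBX3 to ATF3 (0.17), FAM101B to ASNS (0.21), DET1 to PSAT1 (0.23) and IGBP1 to PHGDH (0.12). ATF4, whose group means spanned less than 1 on the log2 scale, was left out of this search.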

How the data were processed

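The 12 libraries held 3' messenger RNA tags of WI-38 fibroblasts, per the labels' protocols; STAR 2.5.3a, featureCounts, edgeR and hg38 are named in the submitters' processing notes, and neither annotation nor strand setting is given. Each deposited value is a signal per gene and library: the authors' counts per library, put on a CPM scale with composition factors from 0.969 to 1.03, per the values themselves; 100% of values were whole multiples of 1 read within 0.01 reads, which gave back whole reads. Differences were tested as log2(value + 1) with limma 3.58.1 in R 4.3.3 (intensity-dependent prior, 1 fit of all 12 libraries, 6 residual and 10.1 prior degrees of freedom) on 13894 genes, with Benjamini-Hochberg adjustment within each of 9 comparisons. Fold changes of low genes are understated on this scale. Replicate numbers are not shared between groups, so nothing was paired. Genes named besides the 10 members were fixed ones (the eIF2 kinases and phosphatase subunits, CEBPB, SESN2, DDIT4, GDF15, SLC7A11, MTHFD2, PSPH, PYCR1, ALDH18A1, HSPA5, XBP1), up to 4 per list by smallest p in YT or cGAS against control, and the 3 nearest genes of each member whose group means spanned at least 1; the text gives a selection. MARS and MBD6 were added for their overlap with DDIT3, and other genes that share exon bases with DDIT3, ASNS or SHMT2 are named. Fibroblast markers that were called are named too. Members, lists and tests were chosen with earlier results of these data known. Alternatives were pseudocounts of 0.25 and 4, no filter and a 5 CPM filter, median-of-ratios scaling, a constant prior, a fit of only the compared groups, omission of each library, and edgeR 4.0.16 and DESeq2 1.42.0 on the recovered reads. Gene positions are from GENCODE release 29 on GRCh38, and promoter windows from RefSeq on GRCh38.p14. The pipeline was tested on simulated counts.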

Additional observations from a re-analysis of the deposited data

Results flagged for a closer look

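These 6 results were marked because the effect of the YAP and TAZ siRNAs differed between backgrounds by the interaction test, with 2 libraries in each of 4 groups. With STING siRNAs the difference was 1.49 for TRIB3, 1.22 for PSAT1, 1.001 for PCK2 and 0.84 for DDIT3 on the log2(CPM + 1) scale, and -0.62 for CHAC1. With cGAS siRNAs it was -0.89 for CHAC1.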

How the results depend on the processing

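Over 1250 recomputed differences of the 10 genes (every alternative of each comparison), 1185 kept their direction where called and their side of the threshold, 43 lost a call, 21 gained one and 1 turned. The one that turned was ATF4 in YT against control, 0.03 and not called with all libraries, which ranged from -0.22 (without YT replicate 4) to 0.29 (without YT replicate 3). The number of the 10 genes called stayed within 1.5 times in 6 of the 9 comparisons under all settings. For STING against control it was 1 in place of 2 with a constant prior and 1 without any one of the 4 libraries, since ASNS lost its call. For the interaction with cGAS the count of 1 ranged from 1 to 4 with libraries left out, and for that with STING the count of 5 ranged from 4 to 8. Rescaling by the median of ratios moved the median of all genes by at most 0.03 on the log2 scale. No paired analysis was possible because the groups share no replicate number. With 2 libraries per group, omitting a library leaves 1 whose spread is taken from the rest. Of the list of other ATF4 and CHOP targets, FGF21, CBS and LAMP3 were not among the genes of the expression table and so were not analysed. Counting error of ATF3, at 195 reads in its lowest library, is larger than that of the other members.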
